A study of Mus musculus with 7 samples.

Results

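F3 regulatory progenitors are stromal cells of fat that carry F3, the gene of tissue factor (CD142). In this single-cell data set they were chosen by unique molecular identifier (UMI) counts per cell. A cell had to hold at least 1 UMI of Pdgfra, the mesenchymal growth factor receptor that marks adipose progenitors, at least 2 UMIs of F3, and at least 1 UMI of Clec11a, Gdf10 or Fmo2. It also had to lack Dpp4, a marker of interstitial progenitors, and Ptprc, Pecam1 and Epcam, markers of leukocytes, endothelium and epithelium. This rule selected 661 of 39566 kept cells, and of 9402 progenitors with Pdgfra and without the 3 lineage genes. The cells came from the stromal vascular fraction (the non-adipocyte cells) of inguinal subcutaneous fat of female C57BL/6N mice, with no treatment or engineered allele named. The 4 young libraries were from mice labelled 11 to 12 weeks old and the 3 old libraries from mice of 18 months. All libraries were made with the 10x Genomics 3' v3 kit after collagenase digestion and red blood cell lysis. Each library is read as 1 mouse. Pooling of mice within a library is not mentioned, so p-values measure the spread between these libraries, part of which may be technical. Fewer UMIs of a gene in summed cells can come from fewer cells that carry it or from less RNA per cell.

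Adipose progenitors with CD142 on their surface were described as cells that give rise to few adipocytes and restrain adipocyte formation in neighbouring progenitors through secreted factors. Tissue factor itself is the membrane receptor of coagulation factor VII and starts the extrinsic clotting cascade. Clec11a (osteolectin) is a secreted growth factor of skeletal and stromal cells, Gdf10 is a secreted member of the TGF-beta superfamily, Fmo2 is a flavin-containing monooxygenase, and Meox2 is a homeobox transcription factor of mesodermal cells.

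The young libraries gave 91, 76, 56 and 92 cells of the rule and the old libraries 166, 79 and 101. Of the 9402 progenitors 1227 had at least 2 F3 UMIs, 445 of these were removed for a Dpp4 UMI and 121 for lack of Clec11a, Gdf10 and Fmo2. The deposited libraries held 52336665 to 99516882 UMIs each, and the summed cells of the rule 985022 to 2098376 UMIs per library. Median UMIs per cell of the rule were 13167, 15138, 21508 and 14519 in the young libraries and 11234, 12282 and 9013 in the old ones, so each old library was shallower than every young one. Library pairs shared 4 to 23 cell barcodes, and the cells of the rule shared 0. Young replicate 1 stood apart from the other young libraries in these cells. Its sums differed from those of the other 3 young libraries by a chi-square of 13.1 to 18.7 per degree of freedom, against 6.43 to 7.21 among those 3. Its summed mural marker genes (vascular smooth muscle and pericytes) reached 413 CPM (UMIs scaled to a common library total), against 47.5 to 63.1 CPM in the other young libraries and 68.6 to 117 CPM in the old ones. Among the old libraries, replicate 3 differed from replicates 1 and 2 by a chi-square of 11.5 and 12.8 per degree of freedom, against 3.73 between those 2. Key values that rest on young replicate 1 are also given without it, and the number of genes called without each library that changes it is given with the age comparison.

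The label was checked against Meox2, the marker that the rule did not use. Meox2 had a UMI in 37.5% of the 661 cells (95% exact Clopper-Pearson interval 33.8% to 41.3%). The share was 7.65% in 2956 progenitors with neither F3 nor Dpp4 UMIs and 5.99% in 3854 Dpp4-positive progenitors without F3. In 14413 cells with Ptprc and without Pdgfra, which should lack the gene, it was 5.47% at a median depth of 6879 UMIs, against 12282 UMIs in the cells of the rule. In that Ptprc-positive background F3 had a UMI in 4.42%, Clec11a in 1.08%, Gdf10 in 1.47% and Fmo2 in 5.09% of cells. By level, as mean unscaled CPM over the 7 libraries, Meox2 stood at 59.9 CPM in the cells of the rule. It stood at 55.3 CPM in kept cells with Ptprc, Pecam1 or Epcam. Meox2 thus set these cells apart from other progenitors but not from all other cells. Dcn, the proteoglycan decorin of fibroblasts, had a UMI in all 661 cells of the rule. In the Ptprc-positive background Dcn had a UMI in 54.8% of cells, so a Dcn UMI alone says little about a cell. Rspo2, a Wnt agonist also listed for CD142 progenitors, had a UMI in 0 of 661 cells, which allows a share of cells with a UMI of up to 0.454% by the limit of 3 counts. The upper bound of the exact Clopper-Pearson interval was 0.557%. It was rare in all progenitors, at 0.489% of cells. Intervals and limits cover counting error only.

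Of 14 other genes listed for CD142 progenitors, 6 were higher in these cells than in progenitors with neither F3 nor Dpp4 in all 7 libraries, and 0 were lower in all 7. The mean was higher for 11 of the 14 and lower for 3, Rspo2, Nr2f1 and Col15a1. The comparison is a description, since the rule chose the cells. The share of all genes that were higher or lower in all 7 libraries is not given here. These counts therefore cannot say whether the list differs from other genes. Values in this paragraph and the next are unscaled CPM of summed counts, as the mean over 7 libraries. Gas6, a ligand of TAM receptor kinases, averaged 511 CPM in the cells of the rule and 134 CPM in the comparison progenitors. Cygb, cytoglobin, averaged 964 and 561 CPM, Bgn, the proteoglycan biglycan, 1560 and 903 CPM, and Vit, the matrix protein vitrin, 72.7 and 26.4 CPM. Each of these 4 genes was higher in the cells of the rule in all 7 libraries, as were Mgp, matrix Gla protein, and Igfbp3, an IGF-binding protein. In Dpp4-positive progenitors Vit averaged 37.0 CPM and Gas6 80.1 CPM. The cells of the rule were above them in 4 of 7 libraries for Vit and in 7 of 7 for Gas6. Nr2f1, a nuclear receptor, was higher in only 3 of 7 libraries (47.7 and 50.6 CPM on average). Pi16, a marker of interstitial progenitors, averaged 49.4 CPM in the cells of the rule against 1668 CPM in Dpp4-positive progenitors.

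Among genes outside the rule with a mean of at least 50 CPM, Chrdl1 stood highest over the comparison progenitors. Chrdl1 is a secreted antagonist of bone morphogenetic proteins (BMPs), and its log2 ratio (pseudocount 1 CPM) lay between 2.72 and 3.69 over the 7 libraries. Against Dpp4-positive progenitors its median log2 ratio was 0.0013, with 4 of 7 libraries higher. Complement genes stood among the 15 highest as well. C3 averaged 1734 against 653 CPM, C4b 665 against 269 CPM and Cfb 50.4 against 16.3 CPM, all higher in 7 of 7 libraries. In Dpp4-positive progenitors C3 was higher, at 2417 CPM (the cells of the rule were above them in 2 of 7 libraries). C4b averaged 502 CPM and Cfb 43.9 CPM there, with the cells of the rule above them in 6 and 5 of 7 libraries. The same list held secreted signals: Fgf7, a growth factor for epithelium (91.4 and 40.8 CPM), Wnt5a, a non-canonical Wnt ligand (75.3 and 31.5 CPM), and Il6, a cytokine (226 and 86.3 CPM). The 10 lowest genes included Lyz2, Cd74 and H2-Aa, genes of macrophages and antigen-presenting cells. Cd74 averaged 74.4 CPM in the cells of the rule and 153 CPM in the comparison progenitors. In cells with Ptprc, Pecam1 or Epcam it averaged 4670 CPM, and the part of free RNA was not tested.

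The 216 cells with exactly 2 F3 UMIs lay just inside the rule, and 524 cells that met all else but had 1 F3 UMI lay just outside. Mean Gdf10 was 221 CPM inside and 143 CPM outside, mean Clec11a 48.1 and 36.7 CPM, and mean Fmo2 155.5 and 124 CPM. Gdf10 was higher inside in 6 of 7 libraries, and Clec11a and Fmo2 in 4 of 7. Meox2 averaged 38.2 CPM just inside and 15.1 CPM just outside, against 59.9 CPM in all cells of the rule and 11.7 CPM in progenitors with neither F3 nor Dpp4. Without young replicate 1 the Meox2 means were 19.2 CPM inside and 14.02 CPM outside, and it was higher inside in the 4 young libraries and lower inside in the 3 old ones. These are values at the limit of the rule and carry no test.

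The share of these cells among progenitors did not pass the test between ages. They made up 12.5%, 3.47%, 7.68% and 4.11% of progenitors in the young libraries and 11.1%, 7.93% and 9.88% in the old ones. Young replicate 1 was the highest of all, and the other 3 young libraries lay below every old one. Means were 6.95% ± 4.16 (SD, n = 4) and 9.64% ± 1.60 (SD, n = 3), with p = 0.314 in a 2-sided exact permutation test of logit shares over the 35 splits, whose smallest possible p is 0.0286. Without young replicate 1 the difference grew from 2.69 to 4.55 percentage points and the exact permutation p was 0.100, the smallest that 3 against 3 libraries allow. With every cell thinned to 5000 UMIs before the rule was applied, which left out 9, 5, 5 and 8 young and 4, 6 and 11 old cells of the rule as too shallow, the shares were 9.17%, 2.34%, 2.58% and 1.67% in the young and 6.42%, 4.08% and 4.89% in the old libraries. The exact permutation p was then 0.343. Of all kept cells they made up 1.69% ± 0.321 (SD, n = 4) in the young and 1.74% ± 0.726 (SD, n = 3) in the old libraries (exact permutation p = 1.00).

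**Figure D1:**
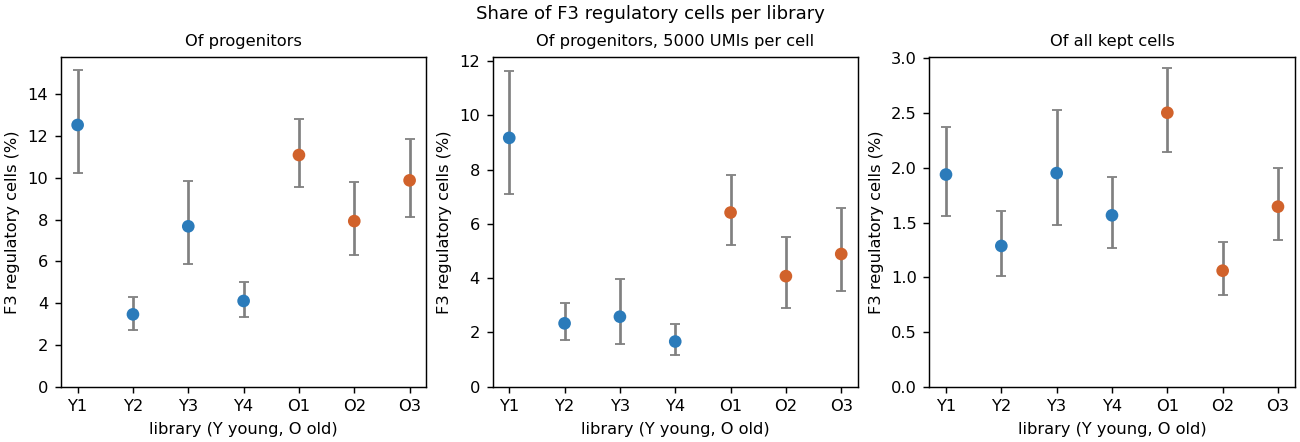
Share of F3 regulatory cells in each library (percent), among progenitors as measured, among progenitors after thinning to 5000 UMIs per cell, and among all kept cells, with bars for 95% exact Clopper-Pearson intervals. Young replicate 1 (Y1), at 12.5% of progenitors, lies above all other libraries, and the old libraries lie between 7.93% and 11.1%.

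The progenitors that the rule left out for Dpp4 are given for comparison. Dpp4-positive progenitors without F3 averaged 46.0% ± 9.88 (SD, n = 4) in the young and 28.6% ± 7.29 (SD, n = 3) in the old libraries, every old library below every young one (exact permutation p = 0.0286, the smallest possible). After thinning the shares were 38.4% and 23.3% and the exact permutation p was 0.171. Shares of 1 total are not independent of each other.

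The markers that chose the cells were not level across libraries, and their values are a description with no test. From here on CPM values are scaled by TMM (trimmed mean of M values) factors. F3 stood at 760, 354, 273 and 300 CPM in the young and at 446, 388 and 620 CPM in the old libraries. Young replicate 1 was the highest and the other 3 young libraries lay below every old one. Gdf10 stood at 965, 468, 397 and 439 CPM in the young and at 305, 273 and 365 CPM in the old libraries, with every old library below every young one. Clec11a stood at 255, 91.5, 131 and 89.6 CPM against 54.7, 41.9 and 101 CPM, and the ranges overlapped through old replicate 3. Fmo2 stood at 263, 142, 592 and 631 CPM against 209, 212 and 138 CPM, with young replicate 2 among the old values. Without young replicate 1, mean F3 was 309 CPM in the young and 485 CPM in the old libraries, and mean Gdf10 435 and 314 CPM.

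**Figure D2:**
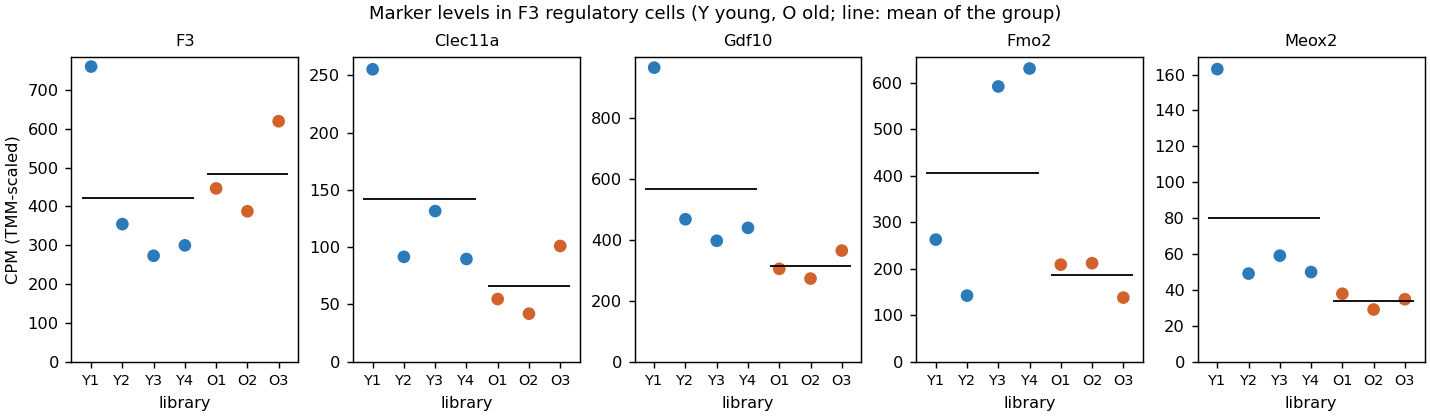
TMM-scaled CPM of F3, Clec11a, Gdf10, Fmo2 and Meox2 in the summed F3 regulatory cells of each library (Y young, O old), with a line at the mean of each age group. Young replicate 1 is the highest library for F3, Clec11a, Gdf10 and Meox2 and has 163 CPM of Meox2 against 49.1 to 59.1 CPM in the other young libraries.

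In the old libraries fewer cells of the rule carried its 3 second markers together. Clec11a, Gdf10 and Fmo2 all had a UMI in 51.6%, 34.2%, 50% and 33.7% of the young cells and in 18.7%, 17.7% and 18.8% of the old cells. Every old library lay below every young one. The means were 42.4% ± 9.77 (SD, n = 4) and 18.4% ± 0.594 (SD, n = 3), and 39.3% for the young libraries without replicate 1. After thinning, the rule was applied again to the thinned counts, so the cells are partly others than before. In these 61, 47, 20 and 34 young and 92, 39 and 41 old cells the means were 43.6% ± 18.0 and 14.4% ± 3.11, again without overlap. Gdf10 had a UMI in 81.4% ± 8.61 of young and 60.5% ± 6.83 of old cells, Clec11a in 55.4% ± 14.3 and 42.0% ± 4.96, and Fmo2 in 77.3% ± 10.7 and 67.2% ± 6.33. Cells with Fmo2 as the sole second marker made up 13.7% ± 7.29 of young and 24.3% ± 2.53 of old cells, with overlap. These shares are a description, since the rule used the 3 genes. Among all progenitors, which include these cells, Gdf10 had a UMI in 43.5%, 62.2%, 54.3% and 45.8% of young cells. In the old libraries the shares were 28.9%, 37.1% and 33.8%. The ages did not overlap, as measured or in the same cells after thinning, so a lower Gdf10 share was not particular to the cells of the rule. Clec11a and Fmo2 overlapped between ages in all progenitors.

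Meox2, outside the rule, had a UMI in 72.5%, 39.5%, 46.4% and 38.0% of the young and in 27.7%, 29.1% and 21.8% of the old cells. All old libraries lay below all young ones, and the exact permutation p was 0.0571. After thinning the means were 38.6% ± 14.1 (SD, n = 4) and 27.0% ± 2.22 (SD, n = 3), the ranges overlapped, and the exact permutation p was 0.171. Without young replicate 1 the young mean as measured was 41.3%, against 26.2% in the old libraries. Its level averaged 80.3 ± 55.3 CPM (SD, n = 4) in the young and 33.9 ± 4.46 CPM (SD, n = 3) in the old cells and did not pass the test (log2 change -1.23 with SE 0.42, adjusted p = 0.274 in edgeR). Without young replicate 1 the young mean was 52.7 CPM. The parts that RNA of mural and other cells and depth have in these Meox2 values were not tested. The stem cell antigen Cd34 also had a UMI in fewer old cells, 84.8% ± 4.70 against 96.5% ± 2.40, and 64.3% ± 2.96 against 92.3% ± 5.58 after thinning. Its level was 691, 635, 384 and 365 CPM in the young and 385, 304 and 360 CPM in the old libraries, with overlap (edgeR adjusted p = 0.463). Cd34 was picked from a wider set of such shares, of which some went the other way. Icam1, an adhesion molecule, had a UMI in 59.8% of young and 68.0% of old cells, with overlap. After thinning its shares were 39.6% and 58.7%, without overlap. Shares of Cd34 in other progenitors are not given here.

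**Figure D3:**
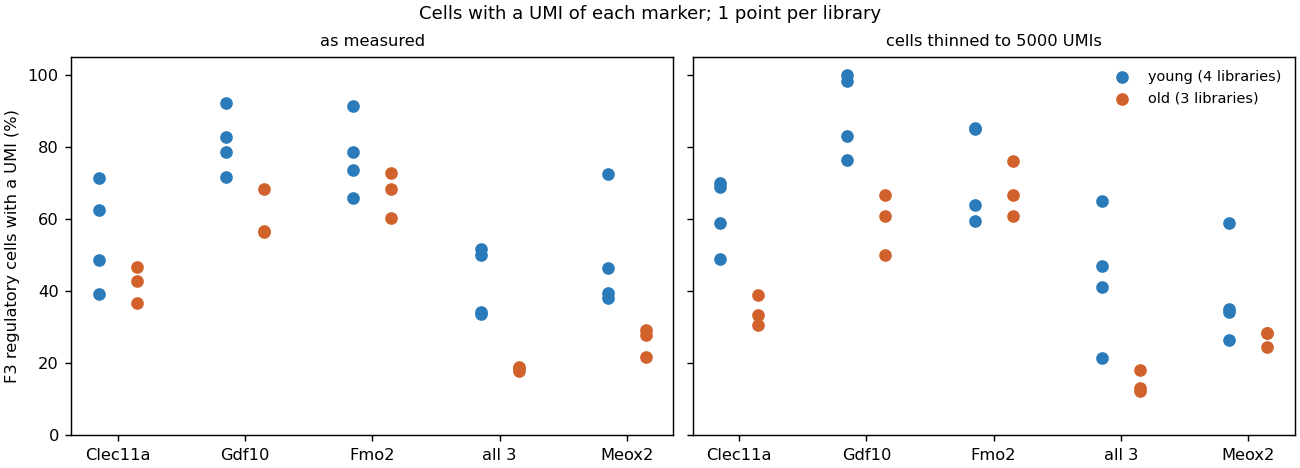
Percent of F3 regulatory cells with at least 1 UMI of Clec11a, Gdf10, Fmo2, all 3 of these, or Meox2, with 1 point per library. Values are as measured (left) and after thinning each cell to 5000 UMIs (right). On the right the rule was applied to the thinned counts, so the cells are partly others than on the left. For all 3 second markers together the old libraries lie at 17.7% to 18.8% as measured and the young ones at 33.7% to 51.6%.

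The bases just upstream of 4 start sites are shown because F3 chose the cells, Meox2 is the marker outside the rule, and Ptn and Col1a2 fell with age in these cells (below). Each line gives 150 bases, 5′ to 3′ on the gene's strand, that end 1 base before the start site in RefSeq (GRCm38.p6). Capitals mark matches on either strand. The motif letters searched were TATAAA for the TATA motif, then CCAAT for the motif of that name, then TGANTCA for sites of the factor AP-1, then CACGTG for the E-box, and no matches overlapped.
F3, chr3:121723387-121723536, plus strand: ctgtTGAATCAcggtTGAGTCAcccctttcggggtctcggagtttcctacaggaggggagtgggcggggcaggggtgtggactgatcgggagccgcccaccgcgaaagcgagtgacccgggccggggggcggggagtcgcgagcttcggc
Meox2, chr12:37108390-37108539, plus strand: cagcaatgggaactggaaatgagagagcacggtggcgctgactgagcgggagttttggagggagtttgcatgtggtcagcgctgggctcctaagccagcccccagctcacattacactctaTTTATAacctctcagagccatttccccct
Ptn, chr6:36810180-36810329, minus strand: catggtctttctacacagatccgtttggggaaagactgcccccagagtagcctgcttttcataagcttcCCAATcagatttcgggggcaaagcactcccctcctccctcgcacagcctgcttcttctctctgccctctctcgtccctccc
Col1a2, chr6:4505468-4505617, plus strand: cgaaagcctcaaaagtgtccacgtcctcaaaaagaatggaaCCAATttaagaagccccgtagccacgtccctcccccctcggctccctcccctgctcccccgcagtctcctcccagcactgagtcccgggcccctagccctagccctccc
F3 held 2 matches to the AP-1 letters, at positions -146 and -135 from its start. Meox2 held a match to the TATA letters at position -29, Ptn a CCAAT match at -81 and Col1a2 a CCAAT match at -109. Of 32817 mouse windows of the same length, 4.24% held the AP-1 letters, 7.58% the TATA letters, 24.5% the CCAAT letters and 4.30% the E-box letters. A match is a description of these letters only.

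The next comparison asked which genes changed with age within the F3 regulatory cells. The largest fall among the genes that the naming rule allows was in Ptn, pleiotrophin, a secreted heparin-binding growth factor, and collagen and other matrix genes fell with it. Genes that rose included Cxcl14, a chemokine, Sparcl1 and Smoc2, secreted relatives of the matrix protein SPARC, and Meox1, a homeobox transcription factor. By edgeR quasi-likelihood on summed counts, 53 of 9050 tested genes passed at an adjusted p under 0.05, which is 0.586% (22 rose, 0.243%, and 31 fell, 0.343%). At an unadjusted p under 0.05 there were 1046 genes, and 1077 genes (11.9%) did not overlap between the ages (5.59% higher and 6.31% lower). Of the 9045 tested genes outside the rule, 436 were higher and 607 lower at an unadjusted p under 0.05 in edgeR. These are the background for the list counts below. In the 2956 progenitors with neither F3 nor Dpp4, from the same libraries, 395 of 11440 genes passed (3.45%). Of these 115 rose (1.01%) and 280 fell (2.45%). Of the 53 genes that passed in the F3 regulatory cells, 38 also passed there with the same sign and 0 had the opposite sign. Most of these age changes were thus shared with other progenitors. DESeq2 called, in the F3 regulatory cells, 67 higher and 115 lower. The number of calls rested on single libraries: without old replicate 1 it was 1 higher and 1 lower, without old replicate 2 it was 10 and 2, and without old replicate 3 it was 8 and 6. Without young replicate 3 it was 3 and 5, without young replicate 4 it was 14 and 17, and without young replicate 1 it was 43 and 117. Of the 23 genes that passed and that the naming rule took, Ptn and Atcayos passed in all 7 fits that left out 1 library.

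Among the genes that fell, Ptn stood at 158.7, 332, 176 and 158.7 CPM in the young libraries and at 5.61, 1.71 and 1.12 CPM in the old ones. The lowest young library was far above the highest old one. The log2 fold change was -5.90 (SE 0.49, edgeR adjusted p = 0.000738), and in progenitors with neither F3 nor Dpp4 it was -6.04 (SE 0.63). Ptn lies on chromosome 6, 36714929 to 36810220 (mm10, GENCODE M21), minus strand. Cpz, a secreted carboxypeptidase that binds Wnt proteins, fell from 72.5, 73.2, 98.2 and 45.5 CPM to 7.01, 8.55 and 16.8 CPM (log2 change -2.83 with SE 0.37, adjusted p = 0.0178 in edgeR). The groups did not overlap. Tmem132c, a transmembrane protein gene, Hmcn1, the matrix protein hemicentin, and Fam13a, known from genetic studies of fat distribution, fell by 2.66, 2.18 and 2.14 respectively on the log2 scale (edgeR adjusted p = 0.0178, 0.0405 and 0.0398).

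Fibrillar collagen and matrix genes formed the list with the most calls. Of its 27 tested members 6 fell and 0 rose in edgeR. At an unadjusted p under 0.05, 1 was higher and 10 lower, beside 436 higher and 607 lower of all 9045 tested genes outside the rule. DESeq2 called 8 lower, beside 115 of all genes. The median log2 fold change of the list was -0.28, beside -0.0026 over all genes, with 13 members higher and 14 lower. In progenitors with neither F3 nor Dpp4 the list's median was -0.51. Postn, periostin, stood at 1901, 3682, 5659 and 3822 CPM in the young and at 548, 973 and 658 CPM in the old libraries. Every young library held more than every old one (log2 change -2.38 with SE 0.36, adjusted p = 0.0197 in edgeR). Fn1, fibronectin, fell from 1696, 3471, 3253 and 2652 CPM to 411, 817 and 231 CPM (log2 change -2.51 with SE 0.42, adjusted p = 0.0272 in edgeR). Col1a1, which encodes the alpha-1 chain of collagen I, fell from 6389, 8224, 15803 and 6586 CPM to 2329, 2344 and 2799 CPM (log2 change -1.89 with SE 0.32, adjusted p = 0.0315 in edgeR). For both genes the ages did not overlap, and young replicate 3 was the highest library for Col1a1 and Postn. Col14a1, a fibril-associated collagen, fell by 2.10 on the log2 scale (SE 0.37, edgeR adjusted p = 0.0353). Col1a2 (log2 fold change -1.64) and Sparc (-1.42), the other 2 members that fell, lie outside the naming rule and were named after their values were seen. Of the 8 tested markers of matrix-producing progenitors 2 fell, Postn and Cthrc1, a secreted collagen triple-helix repeat protein. Their list's median log2 fold change was -1.48, and -2.23 in progenitors with neither F3 nor Dpp4. Cthrc1 went from 93.0, 59.1, 149 and 91.8 CPM to 21.5, 18.8 and 14.6 CPM (log2 change -2.39 with SE 0.33, adjusted p = 0.0178 in edgeR).

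Of 19 tested Wnt and R-spondin genes 2 fell and 0 rose in edgeR. At an unadjusted p under 0.05, 1 was higher and 9 were lower, and DESeq2 called 6 lower. The median log2 fold change was -0.85, and -0.999 in progenitors with neither F3 nor Dpp4. Rspo1, an R-spondin that strengthens Wnt signals at the receptor, stood at 39.3, 29.1, 29.1 and 19.1 CPM in the young and at 6.55, 2.57 and 6.73 CPM in the old libraries. The ages did not overlap (log2 change -2.41 with SE 0.38, adjusted p = 0.0213 in edgeR). Wisp1, a matricellular protein of the CCN family, went from 15.4, 7.49, 30.8 and 18.4 CPM to 2.34, 0.856 and 1.12 CPM (log2 change -3.39 with SE 0.60, adjusted p = 0.0353 in edgeR). Wnt5a, which stood high in these cells, had 193, 74.9, 90.7 and 60.2 CPM in the young and 43.5, 38.5 and 30.3 CPM in the old libraries and did not pass (edgeR adjusted p = 0.138). Dkk3, a secreted Dickkopf family protein, had a log2 fold change of -1.58 and an edgeR adjusted p of 0.0602.

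Among the genes that rose, Cxcl14 stood at 398, 340, 260 and 246 CPM in the young and at 951, 1050 and 2150 CPM in the old libraries. Old replicate 3 was the highest, and the ages did not overlap (log2 change 2.15 with SE 0.31, adjusted p = 0.0178 in edgeR). Sparcl1 rose from 614, 685, 583 and 843 CPM to 1945, 1650 and 2160 CPM (log2 change 1.49 with SE 0.21, adjusted p = 0.0178 in edgeR). Smoc2 rose from 196, 149, 240 and 239 CPM to 506, 527 and 677 CPM (log2 change 1.47 with SE 0.24, adjusted p = 0.0236 in edgeR). Neither gene overlapped between ages. These 3 genes are the members that rose among 12 tested markers of committed preadipocytes, of which 0 fell (edgeR; 5 higher and 0 lower at an unadjusted p under 0.05, 3 higher by DESeq2). The list's median log2 fold change was 0.66, and 0.62 in progenitors with neither F3 nor Dpp4. Its adipogenic members did not pass: Lpl, lipoprotein lipase, had a log2 fold change of 0.77 (edgeR adjusted p = 0.410) and Fabp4, a fatty acid carrier, 0.61 (edgeR adjusted p = 0.536). Macrophage marker genes were also higher in the old cells, at 79.2 to 239 CPM summed against 36.3 to 78.1 CPM, with none of the 10 at 0 UMIs and Lyz2 the most abundant. Their part in the genes that rose was not tested.

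Meox1, a transcription factor of mesodermal cells, stood at 2.56, 6.66, 7.49 and 5.14 CPM in the young and at 50.5, 28.2 and 93.2 CPM in the old libraries (log2 change 3.34 with SE 0.44, adjusted p = 0.0178 in edgeR). Old replicate 3 was the highest, and the ages did not overlap. Meox1 is a paralog of the marker Meox2, whose mean was lower in the old cells without passing. Without old replicate 1 the adjusted p of Meox1 was 0.0841 in edgeR. With the replicate number as a block, A4galt and Ddx39 lost their calls.

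The other named genes that rose were Cldn15, a claudin of tight junctions, Idi1, an enzyme of isoprenoid and cholesterol synthesis, A4galt, a glycosphingolipid synthase, and Ddx39, an RNA helicase. Cldn15 went from 1.71, 3.33, 7.49 and 16.2 CPM to 56.1, 52.2 and 60.6 CPM (log2 change 2.91 with SE 0.45, adjusted p = 0.0213 in edgeR). The log2 fold changes of Idi1, A4galt and Ddx39 were 2.15, 1.75 and 1.60. H2-Q10, a class I histocompatibility gene, rose by 2.40, but it belongs to the H2-Q family of near-identical genes and its count is uncertain. Atcayos had the largest rise of the named genes, from 2.56, 4.16, 1.66 and 0.735 CPM to 44.9, 45.3 and 35.9 CPM (log2 change 4.18 with SE 0.37, adjusted p = 0.000738 in edgeR). It is an antisense gene of Atcay, and reads of the 2 genes cannot be told apart where strand was not used in counting.

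**Figure D4:**
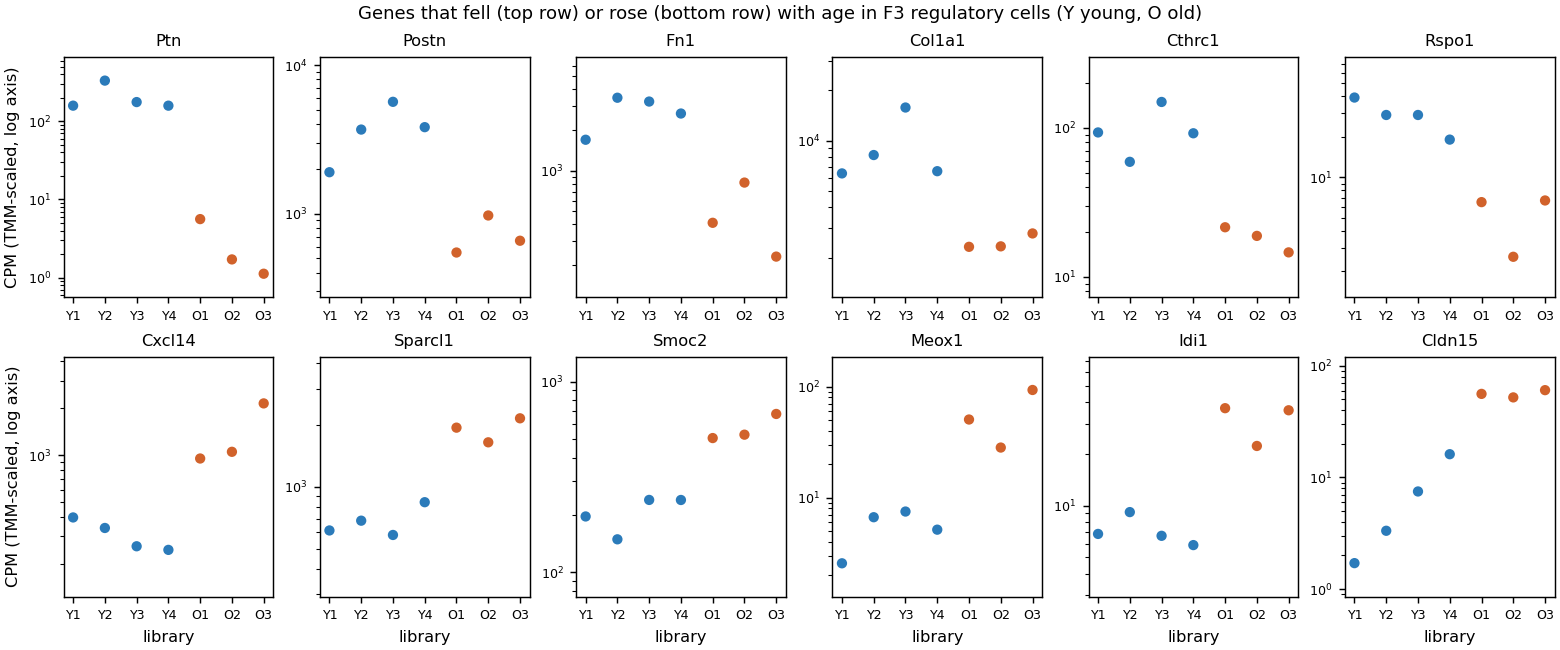
TMM-scaled CPM (log axis) per library in the summed F3 regulatory cells for 6 genes that fell (top) and 6 that rose (bottom) between the 4 young (Y) and 3 old (O) libraries. In each panel the young and old libraries do not overlap; Ptn lies at 158.7 CPM or more in the young and at 5.61 CPM or less in the old libraries.

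The genes tied to the cells' own markers mostly stayed below the threshold. Of 14 tested genes of the tissue factor and fibrinolysis pathway 0 rose and 0 fell (edgeR; 2 higher at an unadjusted p under 0.05, none by DESeq2; median log2 fold change -0.07). Serpine2, an inhibitor of thrombin and plasminogen activators, stood at 13.7, 24.1, 29.1 and 19.8 CPM in the young and at 41.1, 41.1 and 35.9 CPM in the old libraries. Its ages did not overlap, and it did not pass (edgeR adjusted p = 0.201). Of 27 tested BMP, GDF and TGF-beta genes 0 passed in edgeR, with 3 higher and 5 lower at an unadjusted p under 0.05. DESeq2 called 1 higher and 2 lower, Id1 and Chrdl1 among them. Id1, a target of BMP signals, stood at 26.5, 50.8, 54.1 and 46.3 CPM in the young and at 81.8, 88.1 and 169 CPM in the old libraries (edgeR adjusted p = 0.0966). The ages did not overlap. Chrdl1 had 302, 157, 109 and 54.4 CPM against 52.4, 62.4 and 16.8 CPM, with overlap (edgeR adjusted p = 0.200).

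Of 14 tested retinoid genes 0 passed in edgeR (1 higher and 3 lower at an unadjusted p under 0.05), and DESeq2 called Cyp26b1 higher. Cyp26b1, which degrades retinoic acid, stood at 25.6, 43.3, 10.8 and 31.6 CPM in the young and at 153, 83.8 and 41.5 CPM in the old libraries, with overlap (edgeR adjusted p = 0.127). Crabp1, a retinoic acid carrier, stood at 278 CPM in young replicate 1 and at 8.55 to 110 CPM in the other 6 libraries (edgeR adjusted p = 0.309). Of the 11 tested other genes of CD142 progenitors 0 passed (edgeR; 1 higher and 2 lower at an unadjusted p under 0.05, 0 by DESeq2; median log2 fold change -0.33). Of 2 tested genes of the osteolectin receptor, Itga11 and Itgb1, 0 passed (edgeR; 0 at an unadjusted p under 0.05 and 0 by DESeq2). Cdkn1a, the cell cycle inhibitor p21 of the senescence list, stood at 58.0, 233, 106 and 137 CPM in the young and at 401, 283 and 713 CPM in the old libraries. It did not pass in edgeR (log2 fold change 1.80, SE 0.43, adjusted p = 0.101) and was the sole gene of that list called by DESeq2.

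The last comparison asked whether the age change differed between the F3 regulatory cells and the 2956 progenitors with neither F3 nor Dpp4 from the same libraries. In edgeR with library as a block, 31 of 10743 genes differed (0.289%), 10 with a positive (0.0931%) and 21 with a negative difference (0.195%) (old minus young in the F3 regulatory cells, less the same in the comparison progenitors). Only Smoc2 was also among the 53 genes that passed for age. Its log2 fold change was 1.47 in the F3 regulatory cells and 2.28 in the comparison progenitors (difference -0.81, SE 0.16, edgeR adjusted p = 0.0356). For Ptn, Postn and Fn1 the differences were -0.03, 0.30 and 0.00 and did not pass.

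The 21 negative genes stood higher in the F3 regulatory cells of young mice and had a smaller gap in old mice. The 10 positive genes stood lower in them in young mice and on average higher in old mice, with a smaller gap. Over all tested genes, 59.0% had a smaller absolute log2 ratio in old mice. Among all genes with a negative difference 54.3% stood higher in the F3 regulatory cells of young mice, and among all with a positive difference 87.6% stood lower. The choice of genes by this difference partly fixes the pattern. Gsn, the actin-severing protein gelsolin, gives an example. In the F3 regulatory cells it stood at 24574, 18872, 12603 and 18236 CPM in the young and at 19877, 17749 and 36627 CPM in the old libraries. In the comparison progenitors it went from 9123, 9282, 5132 and 7582 CPM to 20281, 18899 and 35441 CPM. The cell groups were scaled by separate TMM factors, so small gaps between them within a library depend on the scaling. The F3 regulatory cells had more Gsn than the comparison progenitors in all 4 young libraries (difference -1.26, SE 0.09, edgeR adjusted p = 2.34e-06). In the old libraries the levels were close, with a mean log2 ratio of -0.0023 in unscaled CPM.

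Ppl, the junction protein periplakin, had 94.7, 50.8, 58.3 and 74.2 CPM in young and 68.3, 61.6 and 46.0 CPM in old F3 regulatory cells. In the comparison progenitors it had 24.5, 9.44, 9.39 and 16.5 CPM and then 43.1, 51.3 and 33.3 CPM (difference -1.76, SE 0.19, edgeR adjusted p = 0.00048). Ntf3, neurotrophin-3, had 65.7, 36.6, 27.5 and 30.9 CPM against 20.6, 24.8 and 34.8 CPM in the F3 regulatory cells. The comparison progenitors had 26.3, 12.7, 7.76 and 8.80 CPM against 32.0, 26.2 and 47.1 CPM (difference -1.99, SE 0.22, edgeR adjusted p = 0.00048). For both genes all 4 young libraries had more in the F3 regulatory cells. Entpd2, an ectonucleotidase, Itgbl1, an integrin beta-like protein, and Gas6 and Cygb from the CD142 list had differences of -1.08, -1.20, -1.26 and -0.66 (edgeR adjusted p = 0.00363, 0.00387, 0.0262 and 0.012). Gas6 stood at 1073, 419, 515 and 304 CPM in young and at 490, 426 and 371 CPM in old F3 regulatory cells, and at 122, 128, 82.3 and 53.9 CPM and then 187, 171 and 193 CPM in the comparison progenitors. Its call was lost in 5 of the 7 fits that left out 1 library. It stayed higher in the F3 regulatory cells in all 7 libraries.

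Positive differences were seen in Aspn, asporin, a matrix proteoglycan, Ptgis, prostacyclin synthase, Tgfb2, a TGF-beta ligand, Tpm2, a tropomyosin, Il34, a ligand of the CSF1 receptor, and Serpine2. Their values were 1.30, 1.37, 1.60, 1.72, 1.91 and 1.40 (edgeR adjusted p = 0.00113, 0.0158, 0.023, 0.0262, 0.0262 and 0.0356). Aspn had 68.3, 79.0, 60.7 and 43.3 CPM in young and 51.0, 60.7 and 15.7 CPM in old F3 regulatory cells. The comparison progenitors had 123, 155, 118 and 87.9 CPM and then 41.5, 45.1 and 14.1 CPM. By these separately scaled values Aspn was lower in the F3 regulatory cells in all 4 young libraries and higher in all 3 old ones, by little in old replicate 3. Tgfb2 had 18.8, 54.9, 23.3 and 45.5 CPM in young and 51.4, 27.4 and 39.3 CPM in old F3 regulatory cells, with overlap. The comparison progenitors had 46.8, 113, 45.5 and 52.8 CPM and then 25.8, 27.1 and 17.3 CPM. All 10 positive genes were lower with age in the comparison progenitors. Summed mural markers in those progenitors also differed between ages, at 107 to 889 CPM in the young and 36.1 to 100 CPM in the old libraries. In the F3 regulatory cells they were 47.5 to 413 and 68.6 to 117 CPM. The part of mural cell RNA in the positive differences was not tested.

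**Figure D5:**
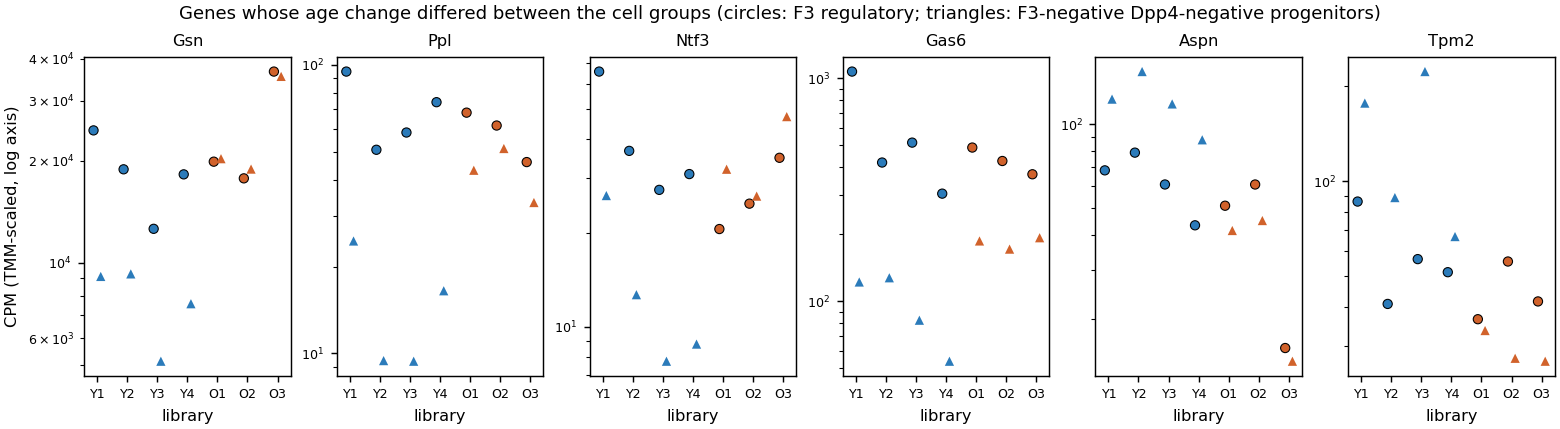
TMM-scaled CPM (log axis) per library of 6 genes, for young (Y, blue) and old (O, orange) libraries. Circles are F3 regulatory cells and triangles are progenitors with neither F3 nor Dpp4 UMIs. The cell groups were scaled by separate TMM factors, so small gaps between circles and triangles depend on the scaling. For Gsn, Ppl and Ntf3 the circles lie above the triangles in all 4 young libraries, with a smaller or opposite gap in the old ones; Aspn and Tpm2 show the circles below the triangles in the 4 young libraries and above them in the 3 old ones.

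The choice of comparison cells decided which genes differed. Against Dpp4-positive progenitors 62 genes passed, of which 3 were among the 31. With cells thinned before the rule was applied 78 passed, 16 of them among the 31. Without old replicate 1, 2 or 3 the number was 8, 13 and 8. Gsn, Ppl, Ntf3, Entpd2 and Aspn passed in all 7 fits that left out 1 library. Against Dpp4-positive progenitors Gsn (difference -0.34), Ppl (-0.70) and Entpd2 (-0.40) did not pass, while Ntf3 (-1.54) and Aspn (1.02) did. Aspn did not pass with cells thinned before the rule (1.02) or with comparison cells free of the second markers (0.94). Median UMIs of the comparison progenitors were 8720, 12667, 22711 and 14164 in the young and 9271.5, 8722 and 8222 in the old libraries, and the part of depth in these differences was not tested.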

How the data were processed

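The data were 7 single-cell libraries, 4 young and 3 old. The deposited files hold raw UMI counts per gene and barcode, which the authors made with Cell Ranger 4.0.0 and mm10, per the submitters' processing notes; the use of strand in counting is not given in the sources used here. Barcodes under 500 UMIs, under 300 genes or above 15% mitochondrial UMIs were removed. Doublets were marked with Scrublet in scanpy 1.11.5 (8 of 661 cells of the rule) and kept, with their removal as an alternative. The members and gene lists were chosen with earlier results of these data known, and clusters were not used.

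Counts were summed over the cells of the rule in each library (56 to 166 cells, 985022 to 2098376 UMIs) and tested with edgeR 4.0.16 (quasi-likelihood, TMM, genes kept by its expression filter) in R 4.3.3, with Benjamini-Hochberg adjustment over all genes tested and a threshold of 0.05. The fit of the difference between cell groups had library as a block. Shares were compared by 2-sided exact permutation tests of logit values (numpy 2.4.6, scipy 1.17.1). Depth was equalised by thinning cells to 5000 UMIs. Alternatives were DESeq2 1.42.0, RLE size factors, no expression filter, F3 limits of 1 and 3 UMIs, stricter cells, thinning, other comparison cells, a replicate block and each library left out.

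Age genes were named as the 10 largest changes per direction that passed, did not overlap, reached 20 CPM at either age and were not 10 times higher in leukocytes, endothelium or epithelium, leaving out predicted genes. Interaction genes were the 5 lowest p-values per direction under the same conditions. Members of the CD142, tissue factor, retinoid, BMP and Wnt lists that passed, and up to 4 lowest p-values of each other list, were eligible as well. Against other progenitors, the 15 highest and 10 lowest genes by the least extreme of the 7 ratios were listed.

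The fits were tested on simulated counts. These had 1 dispersion for all genes and no library that stood apart, so recovery may be lower in the real counts. The age fit recovered 39% of 100 genes changed by 1 on the log2 scale and 98% of 100 changed by 2, and the fit of the difference 87% and 100%. Promoter windows came from RefSeq (GRCm38.p6), and 8 of 8 symbols matched. Some genes that the rules would name are not reported here.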

Additional observations from a re-analysis of the deposited data

Results flagged for a closer look

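Among the 4 young libraries, 1 library stood far from the other 3 for 4 genes in the F3 regulatory cells, by the gap to its nearest neighbour as a share of the whole range. The share was 0.912 for Meox2, 0.876 for Gdf10 and 0.833 for F3, where young replicate 1 was high, and 0.898 for Ptn, where young replicate 2 was high. F3 and Gdf10 chose the cells, so their shares are a description with no test. The critical value for 4 samples is 0.829, and 38 groups were tested, of which chance flags about 1 in 20. Young replicate 1 also had the most mural marker RNA in these cells, whose part in the values was not tested.

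The age change differed between the F3 regulatory cells and progenitors with neither F3 nor Dpp4 by the edgeR test of the difference for 10 genes named by rule. On the log2 scale the difference was 1.30 for Aspn, 1.37 for Ptgis, 1.60 for Tgfb2, 1.72 for Tpm2 and 1.91 for Il34. It was -1.26 for Gsn, -1.76 for Ppl, -1.99 for Ntf3, -1.08 for Entpd2 and -1.20 for Itgbl1.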

How the results depend on the processing

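Counts of genes that passed for age, 22 higher and 31 lower, became 113 and 162 with no expression filter, 67 and 115 in DESeq2, and 41 and 66 with F3 of at least 1 UMI. With F3 of at least 3 UMIs 14 were higher. Leaving out 1 library gave 1 to 43 higher and 1 to 117 lower genes. The 31 genes with a different age change became 62 against Dpp4-positive progenitors, 12 with F3 of at least 1 UMI, and 8 to 44 with 1 library left out. In alternatives chosen after seeing the data they became 78 with cells thinned before the rule and 73 with comparison cells free of the second markers. Against Dpp4-positive progenitors the difference reversed for Ptgis (-0.21), Itgbl1 (0.0912) and Serpine2 (-0.0909). The cause was not tested. The difference in share of progenitors was 2.69 points and 1.53 to 4.55 with 1 library left out. That of kept cells was 0.0505 points, -0.0426 with F3 of at least 3 UMIs, 1.04 among cells without Ptprc (exact permutation p = 0.2), and -0.333 to 0.389 with 1 library left out. The Meox2 share differed by -22.9 points, and by -26.6 to -15.1 with 1 library left out.

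Same-numbered libraries are not stated to be paired, and their deviations correlated at -0.141, 0.0887 and 0.0331, so the numbers were not taken as pairs. With the replicate number as a block 22 genes were higher (12 of them shared) and 52 lower (27 shared), and the share of progenitors differed by 1.74 points (exact permutation p = 0.5). In simulated counts with 1 dispersion for all genes the age fit recovered 39% of genes at a log2 change of 1.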

Other observations

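Further gene lists gave no calls for age in the F3 regulatory cells by edgeR. Of all 9045 tested genes outside the rule, 436 were higher and 607 lower at an unadjusted p under 0.05, and DESeq2 called 67 higher and 115 lower. Of 19 tested interferon response genes 0 passed (0 higher and 4 lower at an unadjusted p under 0.05, 1 lower by DESeq2, Ifit1; median log2 change -0.52). Of 14 tested MHC class I genes 0 passed (5 higher and 0 lower at an unadjusted p under 0.05, 0 by DESeq2; median 0.22). This list does not hold H2-Q10, which rose. Of 16 heat shock and chaperone genes 0 passed (4 higher and 0 lower at an unadjusted p under 0.05, 1 higher by DESeq2, Hspa5; median 0.43). The 12 tested complement genes gave 0 calls (2 higher and 1 lower at an unadjusted p under 0.05, 1 higher by DESeq2, C1qb), of which C3, C4b and Cfb stood among the genes highest in these cells over progenitors with neither F3 nor Dpp4. The 16 tested adipogenic and lipid genes gave 0 calls (1 higher and 2 lower at an unadjusted p under 0.05, 2 lower by DESeq2, Klf5 and Scd1; median 0.31), and the 12 tested genes of the IGF axis gave 0 (0 higher and 2 lower at an unadjusted p under 0.05, 0 by DESeq2; median -0.34).

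Markers of other cell types were present in the summed F3 regulatory cells. The highest library reached 413 CPM for the summed mural markers, 239 CPM for macrophage, 187 CPM for adipocyte and 148 CPM for mammary epithelial markers. The summed Schwann cell markers were 47.5 to 117 CPM in the young and 21.3 to 44.3 CPM in the old libraries, the endothelial markers 25.1 to 58.7 and 18.3 to 95.8 CPM, and the T cell markers 0.805 to 4.05 and 6.43 to 8.12 CPM. Ucp1 of adipocytes and Msln and Lrrn4 of mesothelium were at 0 UMIs in all 661 cells.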
